A study of Mus musculus with 31 samples.

Results

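The genes described here encode 10 interchangeable subunits of the mammalian BAF complex, an ATP-dependent chromatin remodeler of the SWI/SNF family. They were found by gene symbol (Smarca4, Smarca2, Actl6a, Actl6b, Phf10, Dpf2, Dpf1, Dpf3, Ss18 and Ss18l1), and all 10 were present among the 23258 genes kept from both deposited tables. Poly(A) RNA of mouse neocortex was sequenced in 31 libraries from wild-type (WT) mice and from mice whose label is cKO, for conditional knockout, of Elavl1, which encodes the RNA-binding protein HuR. Mice were sampled as embryos of day 13 (E13) or at birth (P0). RNA was taken from whole lysate (total RNA) or from either of 2 pools of a sucrose gradient, the monosome pool with ribosomal subunits and single ribosomes, or the polysome pool with mRNAs that carry several ribosomes. WT groups held 2 libraries of each fraction at E13 and 3 at P0. The groups labelled cKO held 2 total, 3 polysome and 3 monosome libraries at E13, and 3 total, 3 polysome and 2 monosome libraries at P0. The labels name no Cre driver, no floxed allele, no strain and no drug treatment of the animals, and every lysate was prepared with cycloheximide.

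BAF complexes use the energy of ATP to move or evict nucleosomes. Their catalytic ATPase is either Smarca4 (BRG1) or Smarca2 (BRM), and several other positions can be filled by either of 2 or more paralogous proteins. When neural progenitors leave the cell cycle and become neurons, the actin-related protein Actl6a is known to be replaced by Actl6b, the PHD-finger proteins Phf10 and Dpf2 by Dpf1 and Dpf3, and Ss18 by Ss18l1, the calcium-responsive coactivator also called CREST. The complex of dividing progenitors is called npBAF and that of neurons nBAF. These data were used to ask how far the mRNAs of both forms differ between E13 and P0, and whether polysome RNA shows the same change as total RNA.

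Values are FPKM, fragments scaled by transcript length and library size, and are given for each library. The WT and cKO tables were scaled separately, so levels are tested within a table only. WT libraries carry the replicate numbers 0, 1 and 2, and columns of the cKO table are called c0, c1 and c2. Log2 changes refer to log2(FPKM + 1) and are given with their standard error (SE), and a gene is called at a limma adjusted p under 0.05 over all genes tested.

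Elavl1 mRNA followed the cKO label in E13 polysome RNA but not in total or monosome RNA. In E13 polysome RNA it measured 28.3 to 30.0 FPKM under the cKO label against 60.6 and 42.4 FPKM in WT, and at P0 the polysome values overlapped, 15.99 to 22.6 FPKM against 21.5 to 26.2 FPKM. E13 total RNA held 55.4 and 42.5 FPKM under the cKO label against 28.5 and 39.5 FPKM in WT, and E13 monosome RNA 80.0 to 83.9 FPKM against 42.4 and 13.5 FPKM. At P0 total and monosome RNA were also higher under the label, 17.8 to 28.5 against 13.5 to 15.2 FPKM and 24.5 and 29.9 against 8.28 to 12.3 FPKM. No test was made between the tables, each scaled on its own, and the genotype is given as the label states it. Of 9 neuronal markers measured among 10 listed, 8 rose in WT total RNA, from summed levels of 493 to 852 FPKM in WT E13 total RNA to 3399 to 3950 FPKM at P0. Summed progenitor markers lay between 1005 and 1162 FPKM at E13 and between 884 and 1384 FPKM at P0, with 8 of 10 lower and 2 higher. Markers of other cells moved with age as well, in a comparison that called 52.3% of all genes in WT total RNA. All 6 measured of 7 blood markers, mostly globins, fell, with sums from 6916 to 7098 FPKM in WT E13 total RNA to 44.3 to 135.5 FPKM at P0. All 6 interneuron markers rose, with sums from 0.438 to 7.94 FPKM to 67.7 to 86.2 FPKM, and all 4 astrocyte markers, with sums from 1.54 to 1.94 FPKM to 23.4 to 43.9 FPKM. Blood markers of the cKO table summed to 3405 to 32760 FPKM at E13 and 67.8 to 319 FPKM at P0. The cortical identity markers (5 of 5) summed to 212 to 294 FPKM at E13 and 246 to 296 FPKM at P0 in WT total RNA, and no marker of these lists was at 0 in all libraries of a group. The part of cell composition in the changes below was not tested, and in bulk tissue fewer cells of a type and less RNA per cell cannot be told apart.

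The ATPase subunits moved unequally: Smarca2 rose while Smarca4 showed no called change in WT. Smarca2 measured 16.7 and 14.0 FPKM in WT E13 total RNA (replicates 0 and 1) and 72.0, 69.5 and 78.1 FPKM at P0. In polysome RNA it measured 19.0 and 21.8 FPKM at E13 and 67.4, 78.6 and 70.6 FPKM at P0. Every P0 library lay above every E13 library in both fractions, and the group means differed 4.76-fold in total RNA (log2 change 2.18 ± 0.18 SE, adjusted p = 1.51e-07) and 3.54-fold in polysome RNA (1.77 ± 0.18, adjusted p = 1.05e-06).

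Smarca4, the ATPase that both forms of the complex can use, measured 36.4 and 19.2 FPKM in WT E13 total RNA and 23.2, 25.3 and 24.1 FPKM at P0. Its polysome values were 23.4 and 52.8 FPKM at E13 and 28.4, 27.4 and 33.9 FPKM at P0. The E13 libraries spanned the P0 libraries in both fractions, and the changes of -0.13 (95% interval -0.78 to 0.52, adjusted p = 0.747) and -0.23 (-0.88 to 0.42, adjusted p = 0.535) were not called. Without E13 polysome replicate 0, the polysome change was -0.80 (adjusted p = 0.0484).

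In cKO-labelled libraries, Smarca2 rose from 12.2 and 14.3 to 76.0, 90.6 and 93.4 FPKM in total RNA (2.62 ± 0.23, adjusted p = 4.97e-08) and from 17.1 to 23.9 to 63.2 to 96.4 FPKM in polysome RNA (1.88 ± 0.21, adjusted p = 4.77e-07). Smarca4 was called higher there, from 18.3 and 22.2 to 47.0, 30.5 and 30.05 FPKM in total RNA (0.77 ± 0.28, adjusted p = 0.0281) and from 13.3, 24.6 and 26.7 to 37.8, 43.7 and 43.8 FPKM in polysome RNA (0.98 ± 0.25, adjusted p = 0.00268). The total RNA call rested on single libraries: the change was 0.57 (adjusted p = 0.111) without P0 column c0 and 0.64 (adjusted p = 0.18) without E13 column c0. P0 total column c0 also had the highest summed level of meningeal markers (5 of 5 measured), 89.98 FPKM against 16.8 and 18.8 FPKM in c1 and c2, and the part of this in the result was not tested.

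Actl6a and Actl6b, which fill the actin-related position beside the ATPase, had the largest changes among the members in WT total and polysome RNA. Actl6a lies on chromosome 3 from 32706298 to 32726973 (GRCm38, plus strand, 14 exons in its longest coding transcript) and Actl6b on chromosome 5 from 137553517 to 137569582 (plus strand, 14 exons). A feature of Actl6a known from work on neuronal BAF is repression by miR-9-3p (also called miR-9*) and miR-124 through its 3′ UTR. The mature miR-9-3p, which RefSeq places at 3 loci on chromosomes 13, 3 and 7 (GRCm38.p6), is shown with its seed (bases 2 to 8) in capitals, above the stretch of the Actl6a and Smarca2 3′ UTRs in which the complementary letters AGCTTTA, in capitals, were found on the transcript strand (GENCODE vM21 annotation, GRCm38).
miR-9-3p: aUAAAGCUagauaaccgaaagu
Actl6a 3′ UTR, chr3:32726628-32726657, plus strand, 38 bases after the stop codon: ctcaacgtctgtAGCTTTAgtacactcagg
Smarca2 3′ UTR, chr19:26777490-26777519, plus strand, 132 bases after the stop codon: tcatctagaactAGCTTTAgggtagtgcca
The letters were not found in the searched 3′ UTRs of Smarca4, Actl6b, Phf10, Dpf2, Dpf1, Dpf3 or Ss18l1, and Ss18 was not searched. Of 19750 annotated 3′ UTRs, 11.1% held them. Of the 14403 UTRs of at least the length of that of Actl6a, 371 bases, 2.87% held them within their first 371 bases. A match is a description of the sequence and does not show that the site was used.

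The promoters of the actin-related pair are shown because these genes had the largest opposite changes (RefSeq, 300 bases around the transcription start, GRCm38.p6, plus strand). Only the first listed start of each gene was searched. The Actl6a window begins at 32708296, inside the gene and downstream of the start given above, 32706298. Capitals mark CCAAT on either strand, which reads ATTGG where it lies on the minus strand.
Actl6a, chr3:32708296-32708595: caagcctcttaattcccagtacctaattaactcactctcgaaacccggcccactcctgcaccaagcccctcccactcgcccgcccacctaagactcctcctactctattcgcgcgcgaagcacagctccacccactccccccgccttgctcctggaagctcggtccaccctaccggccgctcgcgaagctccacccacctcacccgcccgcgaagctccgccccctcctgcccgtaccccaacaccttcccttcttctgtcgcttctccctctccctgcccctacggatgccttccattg
Actl6b, chr5:137553296-137553595: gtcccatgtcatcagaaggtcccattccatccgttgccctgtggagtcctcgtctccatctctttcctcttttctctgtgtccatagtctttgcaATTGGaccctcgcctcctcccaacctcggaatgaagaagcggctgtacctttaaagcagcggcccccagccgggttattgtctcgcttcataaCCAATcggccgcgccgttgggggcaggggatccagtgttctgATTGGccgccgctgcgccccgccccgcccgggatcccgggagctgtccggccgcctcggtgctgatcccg
CCAAT was found 3 times in the Actl6b promoter and 0 times in that of Actl6a, in 4 of 9 member promoters and in 37.9% of 27025 promoters of the same length. The GC box GGGCGG was found in 8 of 9 member promoters against 35.9% of all, and the E-box CANNTG in 6 of 9 against 72.1%, each on both strands. CpG dinucleotides numbered 21 for Actl6a and 23 for Actl6b, and the 9 member promoters held between 17 and 62, against a median of 7 over all promoters. The promoters compared were not limited to coding genes or to genes expressed in these libraries. These differences are therefore not shown to be particular to BAF subunits.

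Actl6a fell from 74.8 and 120.3 FPKM in WT E13 total RNA to 8.36, 9.92 and 9.64 FPKM at P0. In polysome RNA it fell from 187.1 and 121.2 FPKM to 12.9, 15.2 and 15.8 FPKM. The lowest E13 library was several times above the highest P0 library in either fraction. Group means were 97.6 ± 32.1 FPKM (SD, n = 2) and 9.31 ± 0.83 FPKM (n = 3) in total RNA, a 10.5-fold lower level at P0 (log2 change -3.22 ± 0.38 SE, adjusted p = 4.36e-06), and the polysome change was -3.28 ± 0.38 (adjusted p = 3.31e-06).

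Actl6b rose from 20.9 and 9.90 FPKM in WT E13 total RNA to 106.4, 81.3 and 91.8 FPKM at P0. In polysome RNA it rose from 8.59 and 21.1 FPKM to 119.9, 95.1 and 123.0 FPKM. All P0 libraries lay above all E13 libraries. The means differed 6.05-fold in total RNA (2.60 ± 0.33, adjusted p = 1.13e-05) and 7.59-fold in polysome RNA (2.96 ± 0.33, adjusted p = 2.9e-06). Within the WT E13 groups, total replicate 0, polysome replicate 1 and monosome replicate 1 had more Actl6b and less Actl6a than the other library of their group, and their neuronal markers also summed higher, to 852, 1500 and 591 FPKM against 493, 982 and 402 FPKM.

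The libraries labelled cKO showed the same directions. Actl6a measured 136.0 and 73.1 FPKM in E13 total RNA and 10.2, 12.7 and 13.6 FPKM at P0 (-2.94 ± 0.39, adjusted p = 6.06e-06), and 74.8, 168 and 125 FPKM in E13 polysome RNA and 19.0, 20.1 and 22.2 FPKM at P0 (-2.45 ± 0.35, adjusted p = 9.94e-06). Actl6b measured 11.9 and 10.9 FPKM in E13 total RNA and 88.3, 99.2 and 74.3 FPKM at P0 (2.82 ± 0.47, adjusted p = 6.59e-05). Its polysome values were 1.94, 10.8 and 10.5 FPKM at E13 and 138, 115 and 103 FPKM at P0 (4.01 ± 0.42, adjusted p = 2.43e-07). The low value of E13 polysome column c0 stood beside the lowest neuronal marker sum of that group, 409 FPKM against 932 and 748 FPKM, and the highest blood marker sum, 32760 FPKM against 18590 and 12250 FPKM.

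**Figure D1:**
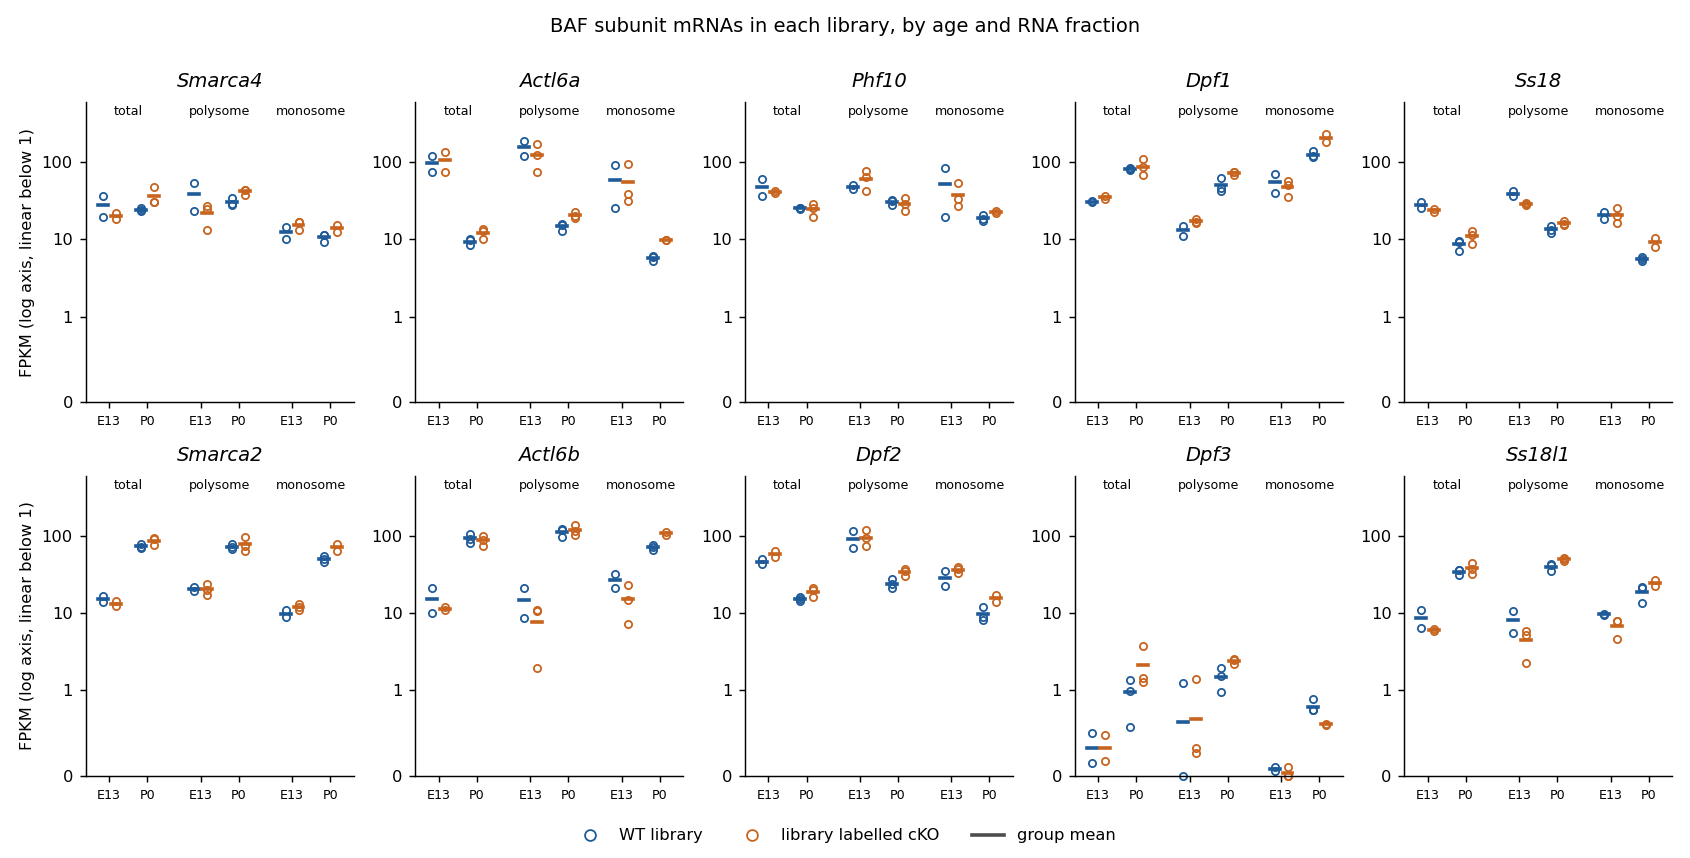
FPKM of the 10 subunit mRNAs (vertical axis, logarithmic above 1 and linear below) at E13 and P0 in total, polysome and monosome RNA, with a circle for each library and a bar for each group mean, WT in blue and libraries labelled cKO in orange (the tables were scaled separately). Actl6a measures 15.8 FPKM or less in every WT P0 library, and Actl6b reaches at least 65.4 FPKM in each of them.

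The PHD-finger subunits, which read histone marks, did not all change to the same extent. Phf10, a progenitor subunit, measured 36.0 and 59.8 FPKM in WT E13 total RNA and 25.4, 24.8 and 25.6 FPKM at P0. The groups did not overlap, but the change of -0.85 ± 0.40 was not called (95% interval -1.70 to -0.01, adjusted p = 0.0844). In polysome RNA it measured 45.0 and 50.4 FPKM at E13 and 31.7, 27.9 and 32.7 FPKM at P0 (-0.62 ± 0.40, adjusted p = 0.196). When the fit held only the groups compared, these adjusted p-values were 0.00479 and 0.0476. Phf10 was called lower in the cKO table, by -0.75 ± 0.29 in total RNA (adjusted p = 0.0394) and -1.02 ± 0.26 in polysome RNA (adjusted p = 0.00268). The total RNA call was lost without E13 column c0 (adjusted p = 0.164), E13 column c1 (0.0959), P0 column c0 (0.121) or P0 column c1 (0.0542).

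Dpf2, the PHD-finger subunit found in many tissues, fell from 43.2 and 49.5 FPKM in WT E13 total RNA to 15.1, 16.1 and 14.2 FPKM at P0 (-1.55 ± 0.24, adjusted p = 7.64e-05). Its polysome level fell from 113.9 and 70.2 FPKM to 23.6, 21.2 and 27.3 FPKM (-1.86 ± 0.24, adjusted p = 1.23e-05). The E13 and P0 libraries did not overlap in either fraction. The cKO table gave changes of -1.58 ± 0.23 in total RNA (adjusted p = 1.91e-05) and -1.42 ± 0.21 in polysome RNA (adjusted p = 1.4e-05).

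Dpf1, the main neuronal PHD-finger subunit here by level, rose from 29.9 and 31.2 FPKM to 84.5, 80.0 and 79.6 FPKM in WT total RNA (1.38 ± 0.24, adjusted p = 0.000196). In polysome RNA it rose from 11.1 and 14.8 FPKM to 46.3, 42.7 and 61.2 FPKM (1.86 ± 0.24, adjusted p = 1.11e-05). At either age its polysome values lay below its total values, unlike those of Dpf2. The libraries labelled cKO gave 1.28 ± 0.24 in total RNA (adjusted p = 0.000282) and 2.00 ± 0.22 in polysome RNA (adjusted p = 4.49e-07).

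Dpf3, the other neuronal PHD-finger subunit, was measured at low levels. It held 0.502 and 0.158 FPKM in WT E13 total RNA and 0.994, 0.569 and 1.38 FPKM at P0, with 0 and 1.26 FPKM in E13 polysome RNA and 1.95, 0.985 and 1.55 FPKM at P0. Its mean over WT libraries was under the minimum of 1 FPKM, so it was the single member not tested in WT. Without that minimum the changes were 0.57 (adjusted p = 0.149) and 0.71 (adjusted p = 0.0681). It passed the minimum in the cKO table and rose there from 0.480 and 0.182 FPKM to 3.70, 1.28 and 1.44 FPKM in total RNA (1.17 ± 0.32, adjusted p = 0.0048) and from 0.272, 0.328 and 1.40 FPKM to 2.19, 2.49 and 2.54 FPKM in polysome RNA (1.09 ± 0.28, adjusted p = 0.00289). Only its P0 total and polysome groups had means above 1 FPKM there (2.14 and 2.41 FPKM), against 0.331 and 0.667 FPKM at E13. It thus entered the test through the age at which it was higher. Without the minimum, the adjusted p-values in the cKO table were 0.00818 in total and 0.00538 in polysome RNA. The total RNA call was lost without E13 column c1 (1.01, adjusted p = 0.0521).

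Ss18 and its paralog Ss18l1 changed in opposite directions. Ss18 fell from 30.7 and 25.3 FPKM to 9.09, 7.13 and 9.60 FPKM in WT total RNA (-1.60 ± 0.19, adjusted p = 5.48e-06). In polysome RNA it fell from 35.9 and 41.7 FPKM to 13.2, 12.2 and 15.0 FPKM (-1.46 ± 0.19, adjusted p = 1.23e-05). Ss18l1, which couples calcium signals to transcription in neurons, rose from 11.0 and 6.34 FPKM to 35.8, 36.5 and 31.0 FPKM in WT total RNA (1.91 ± 0.28, adjusted p = 3.47e-05). Its polysome level rose from 5.51 and 10.7 FPKM to 42.3, 42.5 and 35.1 FPKM (2.22 ± 0.28, adjusted p = 7.34e-06). No E13 library of either gene overlapped the P0 libraries of its fraction.

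With cKO-labelled libraries, Ss18 changed by -1.06 ± 0.23 in total RNA (adjusted p = 0.000794) and -0.79 ± 0.20 in polysome RNA (adjusted p = 0.00304). Ss18l1 rose there from 6.24 and 5.81 FPKM to 32.3, 37.4 and 44.3 FPKM in total RNA (2.46 ± 0.29, adjusted p = 1.47e-06) and from 2.28, 5.19 and 5.78 FPKM to 50.4, 46.6 and 51.0 FPKM in polysome RNA (3.28 ± 0.26, adjusted p = 8.27e-09). Its P0 polysome mean was 11.2 times that at E13.

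Across the members, WT total RNA held 4 higher genes (Smarca2, Actl6b, Dpf1 and Ss18l1) and 3 lower genes (Actl6a, Dpf2 and Ss18) of 9 tested. Among all 12123 genes tested in that comparison, 52.3% were called, 24.4% higher and 27.9% lower, so a call by itself is common between these ages. The same 4 genes were higher and the same 3 lower in WT polysome RNA, where 57.1% of all genes were called, 23.7% higher and 33.4% lower. The median change over the 9 tested members was -0.13 in total RNA and -0.23 in polysome RNA, against -0.12 and -0.19 over all genes. All 10 members were tested in the cKO table and called in total RNA (6 higher, 4 lower) and in polysome RNA (6 higher, 4 lower), where 50.9% (27.8% higher, 23.2% lower) and 56.9% (30.4% higher, 26.5% lower) of 12302 genes were called. Their median changes were 0.97 and 1.04, against 0.04 and 0.04 over all genes. Because members rose and fell, each of these medians describes the middle genes of the set and not a shared shift. The middle gene was Smarca4 in WT. In the cKO table the middle lay between Smarca4 and Dpf3, the smallest rises. Dpf3, among the higher members, passed the minimum there only through its P0 libraries.

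Monosome RNA gave the same directions for most members, with smaller changes of Actl6b and Ss18l1 in WT. Actl6b measured 21.2 and 32.0 FPKM at E13 and 76.8, 65.4 and 71.6 FPKM at P0 (1.41 ± 0.33, adjusted p = 0.00221), and Ss18l1 9.51 and 9.77 FPKM at E13 and 21.5, 21.2 and 13.5 FPKM at P0 (0.86 ± 0.28, adjusted p = 0.0148). The Ss18l1 call was lost without E13 replicate 0 (adjusted p = 0.0677), P0 replicate 0 (0.0536) or P0 replicate 1 (0.0505). Of 9 members tested in WT monosome RNA, 4 were called higher and 4 lower, where 56.1% of all genes were called, 20.4% higher and 35.7% lower (2478 and 4329 genes, or 3071 and 3378 after rescaling by median ratios). The call of Phf10 (-1.08, adjusted p = 0.0303) came from groups that overlapped, with 83.6 and 19.3 FPKM at E13 and 18.2, 20.8 and 17.04 FPKM at P0, and without E13 replicate 0 the change was -0.05 (adjusted p = 0.888). It was also lost without P0 replicate 0 (0.0631) or P0 replicate 2 (0.0729) and after rescaling (-0.86, adjusted p = 0.0696). In monosome RNA labelled cKO, 4 members were higher and 3 lower of 10 tested, with 48.7% of all genes called (26.3% higher, 22.4% lower), and Smarca4, Phf10 and Dpf3 were not called.

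**Figure D2:**
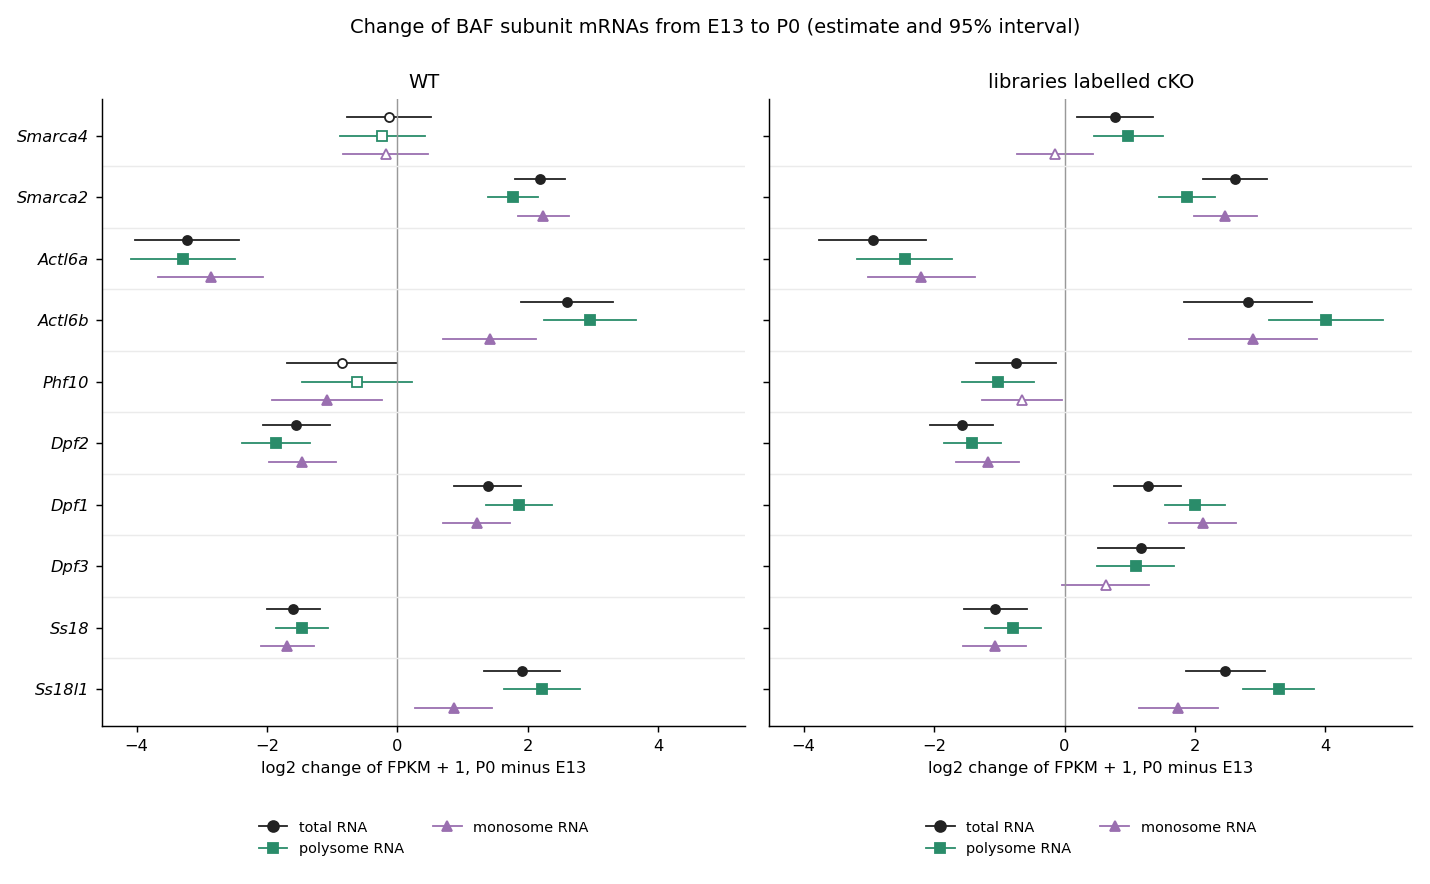
Log2 change of FPKM + 1 from E13 to P0 (horizontal axis) for each subunit in total, polysome and monosome RNA, in WT (left) and libraries labelled cKO (right). Points are limma estimates, lines are 95% intervals and filled points were called. Actl6a has the lowest estimate in every fraction of both tables, and Dpf3 has no WT point because it was not tested there.

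The balance within each library shows the exchange without depending on how libraries were scaled, and is given as the share of the neuronal subunit in the summed FPKM of its pair. No test was applied to it. For the ATPases the share is that of Smarca2, although both forms of the complex can use Smarca4. Actl6b made up 7.61% and 21.8% of Actl6a plus Actl6b in WT E13 total RNA and 89.1% to 92.7% at P0. In WT polysome RNA its share went from 4.39% and 14.8% to 86.2% to 90.3%, and in the libraries labelled cKO from 8.05% and 13.0% to 84.5% to 89.6% in total RNA and from 2.52% to 7.76% to 82.3% to 87.9% in polysome RNA. The ratio of Actl6b to Actl6a thus rose 65.8-fold in WT total RNA and 85.95-fold in WT polysome RNA (6.04 and 6.43 on the log2 scale). Single E13 libraries moved these values: leaving out 1 library in turn gave 5.16 to 6.92 in total and 5.46 to 7.39 in polysome RNA on the log2 scale.

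Ss18l1 went from 20.0% and 26.4% of Ss18 plus Ss18l1 to 76.4% to 83.7% in WT total RNA, and from 13.3% and 20.5% to 70.1% to 77.7% in WT polysome RNA. Smarca2 went from 31.5% and 42.1% of both ATPases to 73.4% to 76.4% in WT total RNA and from 29.3% and 44.9% to 67.6% to 74.1% in polysome RNA. Its share overlapped between the ages in polysome RNA labelled cKO, where it was 41.1% to 64.3% at E13 and 59.1% to 68.8% at P0. The change of its log2 ratio there was 0.91, and 0.67 to 1.35 on leaving out 1 library in turn. The ATPases in polysome RNA labelled cKO were the single case among 24 combinations of pair, table and fraction in which the ages overlapped. These combinations share genes and libraries, and groups this small can also separate by chance. The same count is not given here for other gene pairs, so this one is not set against a background. The pairs were also chosen as subunits known to be exchanged. Among single genes, 52.3% were called between the ages in WT total RNA, a share of limma calls and not of ratios without overlap.

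For the PHD-finger position, Dpf1 and Dpf3 together made up 22.3% and 27.8% of the 4 subunits in WT E13 total RNA and 66.3% to 67.8% at P0. The polysome shares were lower at both ages, 6.55% and 11.8% at E13 and 46.6% to 51.2% at P0, and the monosome shares at P0 were higher, 80.8% to 82.5%. The libraries labelled cKO had 51.9% to 56.3% in P0 polysome RNA and 64.7% to 70.2% in P0 total RNA. In P0 polysome RNA this was the lowest neuronal share of the 4 pairs in both tables. Its log2 ratio nevertheless rose by 3.27 in WT polysome RNA and 3.35 in polysome RNA labelled cKO, against 2.06 and 0.91 for Smarca2 over Smarca4.

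**Figure D3:**
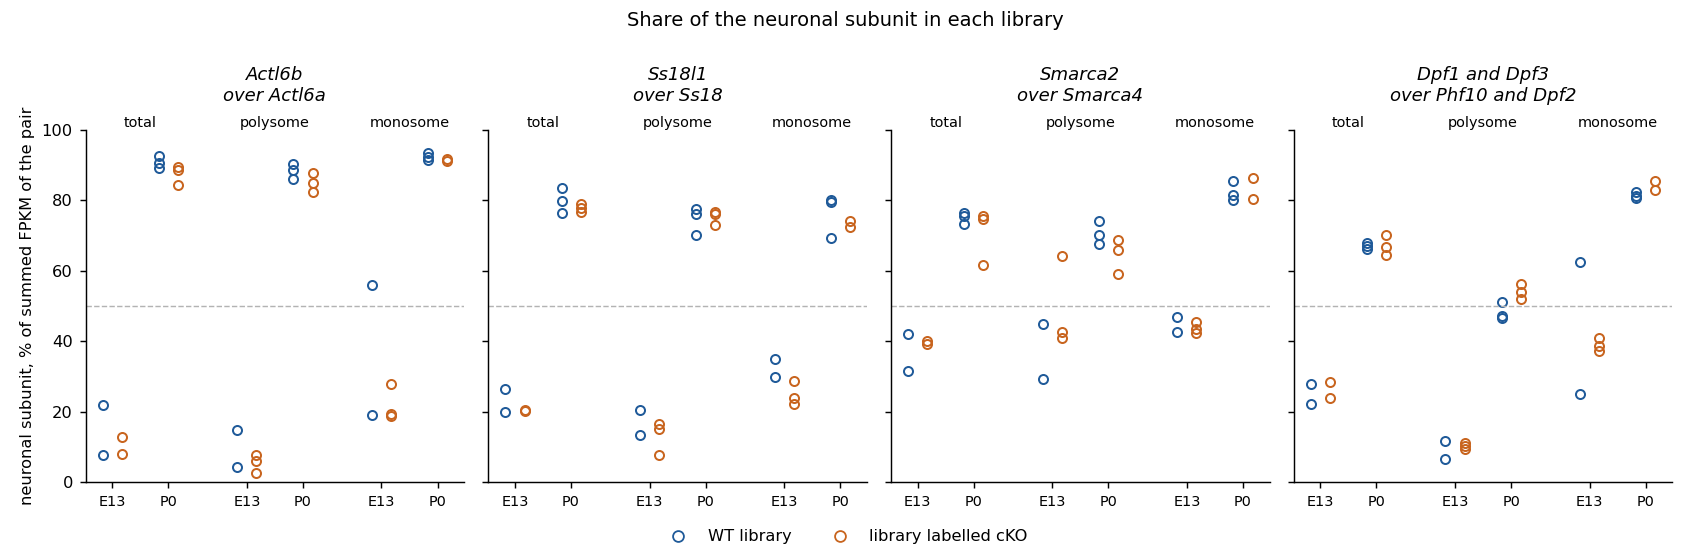
Share of the neuronal subunit (for the ATPases, of Smarca2) in the summed FPKM of its pair (vertical axis, percent) in each library at E13 and P0, by RNA fraction, with WT in blue and libraries labelled cKO in orange. The dashed line marks equal amounts. In total RNA every E13 library lies below the line and every P0 library above it for each of the 4 pairs, and in polysome RNA the PHD-finger position reaches 46.6% to 56.3% at P0.

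The order of levels within a library group turned over between the ages. In WT E13 total RNA, Actl6a (mean 97.6 FPKM) stood first, followed by Phf10 (47.9 FPKM) and Dpf2 (46.3 FPKM), whose values overlapped, then Dpf1 (30.6), Ss18 (28.0), Smarca4 (27.8), Actl6b (15.4) and Smarca2 (15.4 FPKM), each overlapping the next apart from Dpf2 and Dpf1. Ss18l1 (8.69 FPKM) and Dpf3 (0.330 FPKM) came last. At P0 the first 4 were Actl6b (93.2 FPKM), Dpf1 (81.4 FPKM, overlapping Actl6b), Smarca2 (73.2 FPKM) and Ss18l1 (34.4 FPKM). Phf10 (25.3 FPKM) and Smarca4 (24.2 FPKM), which overlapped, and Dpf2 (15.1 FPKM) followed, and Actl6a (9.31 FPKM) and Ss18 (8.61 FPKM), which overlapped, stood just above Dpf3 (0.981 FPKM). WT P0 polysome RNA had Actl6b (113 FPKM) and Smarca2 (72.2 FPKM) first, ahead of Dpf1 (50.0 FPKM).

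Dpf1 mRNA was called lower in polysome than in monosome RNA at both ages of both tables. In WT E13 it measured 39.2 and 70.2 FPKM in monosome RNA against 11.1 and 14.8 FPKM in polysome RNA, a 4.22-fold lower mean (-1.95 ± 0.26, adjusted p = 2.12e-05). At P0 it measured 116.4, 136.9 and 118.1 FPKM in monosome RNA against 46.3, 42.7 and 61.2 FPKM in polysome RNA (-1.30 ± 0.21, adjusted p = 8.7e-05). The groups did not overlap at either age. The cKO table gave differences of -1.39 ± 0.22 at E13 and -1.51 ± 0.24 at P0, both called.

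Several other members were higher in polysome RNA. Called higher in polysome than monosome RNA were 5 members in WT E13 (Dpf2 1.64, Actl6a 1.63, Smarca4 1.47, Smarca2 0.99 and Ss18 0.90 on the log2 scale), with Dpf1 as the 1 lower, where 53.3% of all genes were called, 32.6% higher and 20.7% lower (3951 and 2515 genes, or 3039 and 3043 after rescaling by median ratios). In WT P0, 6 were higher (Smarca4 1.41, Dpf2 1.24, Actl6a 1.22, Ss18 1.13, Ss18l1 1.08 and Smarca2 0.52), with Dpf1 lower, where 59.8% of all genes were called, 39.5% higher and 20.3% lower (4793 and 2462 genes, or 3577 and 3244 after rescaling). Smarca2 depended on the scaling: after rescaling its P0 difference was 0.20 (adjusted p = 0.335), and it was lost without monosome replicate 0 (adjusted p = 0.0529). The E13 call of Actl6a was lost without monosome replicate 1 (0.73, adjusted p = 0.0547). That of Ss18 was lost when only the groups compared were fitted (adjusted p = 0.101) and with the replicate number as a block within E13 (adjusted p = 0.0767). Phf10 at WT E13 was not called (0.23), and differed by -0.80 without monosome replicate 1 and by 1.26 without monosome replicate 0.

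For the neuronal subunits Actl6b and Ss18l1, the estimates for polysome against monosome RNA were negative at E13 and positive at P0, and of the 4 in WT only that of Ss18l1 at P0 was called. At WT E13 their polysome minus monosome differences were -0.89 ± 0.37 (adjusted p = 0.0504) and -0.28 ± 0.30 (adjusted p = 0.455), and at P0 they were 0.65 ± 0.30 (adjusted p = 0.0731) and 1.08 ± 0.25 (adjusted p = 0.00142). In the cKO table the E13 values were -0.99 and -0.57 and the P0 values 0.13 and 0.97, of which the last was called, though not without monosome column c1 (adjusted p = 0.0956). The change of these differences with age was not tested. The E13 difference of Actl6b in WT was called after rescaling (-1.14, adjusted p = 0.0152), without monosome replicate 0 (adjusted p = 0.0358) and without polysome replicate 1 (-1.50, adjusted p = 0.00394).

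Among cKO-labelled libraries, 4 members were higher and Dpf1 lower in polysome than monosome RNA at E13, where 45.1% of all genes were called (22.7% higher, 22.4% lower). At P0, 6 were higher and Dpf1 lower, where 48.8% were called (25% higher, 23.8% lower). Dpf3, among the 6, passed the minimum only through its P0 polysome and total groups. Their means were 2.41 and 2.14 FPKM, against 0.602 FPKM in P0 monosome RNA, so its call is not set against these shares. Dpf2 was higher at both ages (1.33 and 1.09). The E13 call of Phf10 was lost without polysome column c0 or c2 or monosome column c0 or c2, and that of Actl6a without monosome column c0 (adjusted p = 0.0514). Of the 7 calls at P0, those of Actl6a, Dpf3, Ss18 and Ss18l1 were lost without monosome column c1, and that of Actl6a without any single library of either group.

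Against total RNA fewer members differed. In WT E13, Dpf2 was higher in polysome RNA (0.94, adjusted p = 0.023) and Dpf1 lower (-1.19, adjusted p = 0.00771), with 21.1% of all genes called, 13% higher and 8% lower (1582 and 970 genes, or 737 and 1067 after rescaling). In WT P0, Ss18 was higher (0.59, adjusted p = 0.0284) and Dpf1 lower (-0.71, adjusted p = 0.0365), with 16.5% called, 6.7% higher and 9.77% lower (812 and 1184 genes, or 413 and 1323 after rescaling). The P0 fractions of WT with equal numbers deviated together. With that number as a block among the P0 libraries, Actl6a (0.60, adjusted p = 0.00197) and Dpf2 (0.63, adjusted p = 0.0101) were called in addition. For polysome against monosome RNA the same block added calls of Actl6b (adjusted p = 0.000492) and Phf10 (adjusted p = 0.000568), among others. Dpf3 was tested in that fit, because the minimum was taken over P0 libraries only. The share of all genes called with this block is not given here, so the added calls are not set against it. In the libraries labelled cKO, Dpf1 was lower at E13 (-0.98, adjusted p = 0.0195), where 7.87% of all genes were called (2.72% higher, 5.15% lower). Dpf2 was higher at P0 (0.83, adjusted p = 0.0198), where 11.6% were called (5.15% higher, 6.47% lower).

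These calls against total RNA rested on few libraries. Dpf2 and Dpf1 in WT E13 were each lost without polysome replicate 0 or total replicate 1, and Dpf2 also without total replicate 0. In WT P0 the call of Dpf1 was lost without polysome replicate 0 or 1 or any total replicate, and that of Ss18 without polysome replicate 0 or 2 or any total replicate. For the cKO table, the E13 call of Dpf1 was lost without polysome column c1 or c2 or either total column, and the P0 call of Dpf2 without any polysome column or total column c0.

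**Figure D4:**
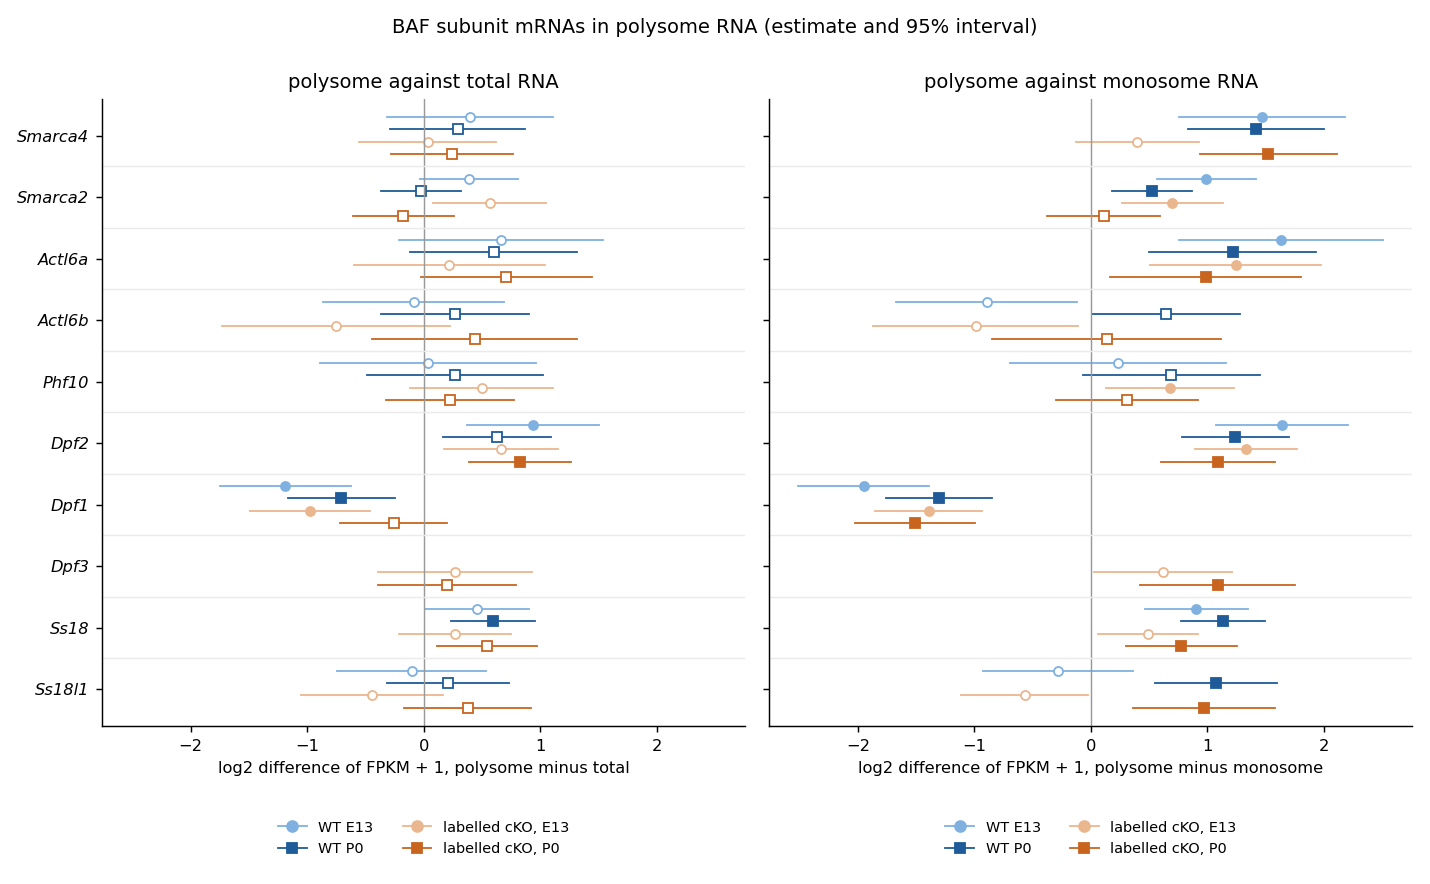
Log2 difference of FPKM + 1 between polysome RNA and total RNA (left) or monosome RNA (right) for each subunit, by age and table. Points are limma estimates, lines are 95% intervals and filled points were called. Dpf1 lies below 0 in all 8 comparisons, and Dpf2 lies above 0 in all 8.

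Whether polysome RNA changed with age differently from total RNA was tested as an interaction, and no member was called. This test treated the fractions as independent libraries, although replicate numbers pair the P0 fractions of WT. A fit with the number as a block within each age was not run for it. In WT the differences between the age changes (polysome minus total) ran from -0.41 for Smarca2 (95% interval -0.96 to 0.13) to 0.48 for Dpf1 (-0.24 to 1.20), each with an adjusted p of 0.999. For Actl6a the difference was -0.06 (-1.19 to 1.07) and for Actl6b 0.36 (-0.65 to 1.36). The intervals of both genes include differences larger than 1 on the log2 scale. Among all genes 0.00825% (1 gene) were called in WT, and among libraries labelled cKO the share was 0%, where the count at an unadjusted p under 0.05 was 684 of 12302 genes. There Smarca2 had -0.74 (-1.39 to -0.09, adjusted p = 0.832), Actl6b 1.19 (-0.13 to 2.51, adjusted p = 0.919), Ss18l1 0.82 (0.00 to 1.64, adjusted p = 0.897) and Dpf1 0.72 (0.03 to 1.41, adjusted p = 0.878).

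The age changes were also compared between the WT libraries and those labelled cKO, each change being taken within its table. No member was called in total RNA (0.0163% of 12233 genes called), polysome RNA (0.654%) or monosome RNA (0.286%). After rescaling by median ratios, the calls over all genes were 13 higher and 15 lower in place of 63 and 17 in polysome RNA, and 6 and 3 in place of 32 and 3 in monosome RNA. The Smarca4 change was larger in the libraries labelled cKO by 0.90 in total RNA (95% interval 0.03 to 1.77, adjusted p = 0.793) and by 1.21 in polysome RNA (0.39 to 2.04, adjusted p = 0.128). The polysome difference was 1.78 (adjusted p = 0.0255) without WT E13 polysome replicate 0 and 0.64 (adjusted p = 0.547) without replicate 1, the replicates in which Smarca4 measured 23.4 and 52.8 FPKM. Ss18l1 differed by 1.06 (0.27 to 1.85, adjusted p = 0.166) and Actl6b by 1.05 (-0.15 to 2.26, adjusted p = 0.377) in polysome RNA. In monosome RNA Actl6b differed by 1.47 (0.20 to 2.75, adjusted p = 0.267) and Dpf1 by 0.90 (0.21 to 1.59, adjusted p = 0.211). Over all genes the median difference was 0.17 in total, 0.23 in polysome and 0.32 in monosome RNA.

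Of 21 other BAF and PBAF subunits listed, 20 were measured, and most changed less than the exchanged subunits. In WT total RNA 5 were higher, the core scaffold Smarcc2 (1.05, adjusted p = 0.00145), Gltscr1 (0.87), the transcription factor Bcl11a (0.83), the DNA-binding subunit Arid1b (0.76) and Brd9 (0.55). The 3 lower were Smarcd2 (-0.81, adjusted p = 0.003), Bcl7c (-0.72) and Brd7 (-0.60). The other 12 were not called, among them Arid1a (0.05), Smarcb1 (-0.37) and Smarcc1 (-0.31), the scaffold partner of Smarcc2. The median over the 20 was -0.02, against -0.12 over all genes, of which 52.3% were called.

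WT polysome RNA had 2 of these subunits higher, Smarcc2 (0.85) and Bcl11a (0.65), and 3 lower, Brd7 (-0.998), Smarcd2 (-0.99) and Smarce1 (-0.78), with a median of -0.14. Over all genes 23.7% were called higher and 33.4% lower there, with a median of -0.19. The cKO table had 8 higher and 2 lower in total RNA (median 0.50) and 11 higher and 2 lower in polysome RNA (median 0.62), with Smarcc2 at 1.98 and 2.27 and Bcl11b at 1.92 and 2.19. Of all genes in that table, 27.8% were called higher and 23.2% lower in total RNA (median 0.04). The shares in its polysome RNA were 30.4% and 26.5% (median 0.04). Smarcc2 rose and Smarcd2 fell in total and polysome RNA of both tables.

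Known regulators of the exchange, 11 of 14 listed, were mostly lower at P0. Those without values were the listed host genes of miR-124 and a host gene of miR-9. Rest, the repressor of neuronal genes that also silences the loci of miR-9 and miR-124, fell in WT total RNA by 0.96 on the log2 scale (adjusted p = 0.00099) and its corepressor Rcor2 fell by 2.31. The phosphatases that act with Rest, Ctdsp1 (-2.03), Ctdsp2 (-1.64) and Ctdspl (-1.37), and the splicing repressor Ptbp1 (-2.44, adjusted p = 1.12e-06) were also lower. Rcor1, Sin3a and Ptbp2 were called lower in WT total RNA too. The 2 that rose were C130071C03Rik (1.07), the host transcript of a miR-9 locus, and Rcor3 (0.69), so that 2 were higher and 9 lower in total RNA and likewise 2 and 9 in polysome RNA. The median was -0.96 in total RNA, against -0.12 over all genes, of which 24.4% were called higher and 27.9% lower. In polysome RNA 23.7% of all genes were called higher and 33.4% lower. In the libraries labelled cKO 1 was higher and 6 lower in total RNA, Rest among the lower (-0.81, adjusted p = 0.0277), and C130071C03Rik was not called (0.48). Of all genes 27.8% were called higher and 23.2% lower there.

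**Figure D5:**
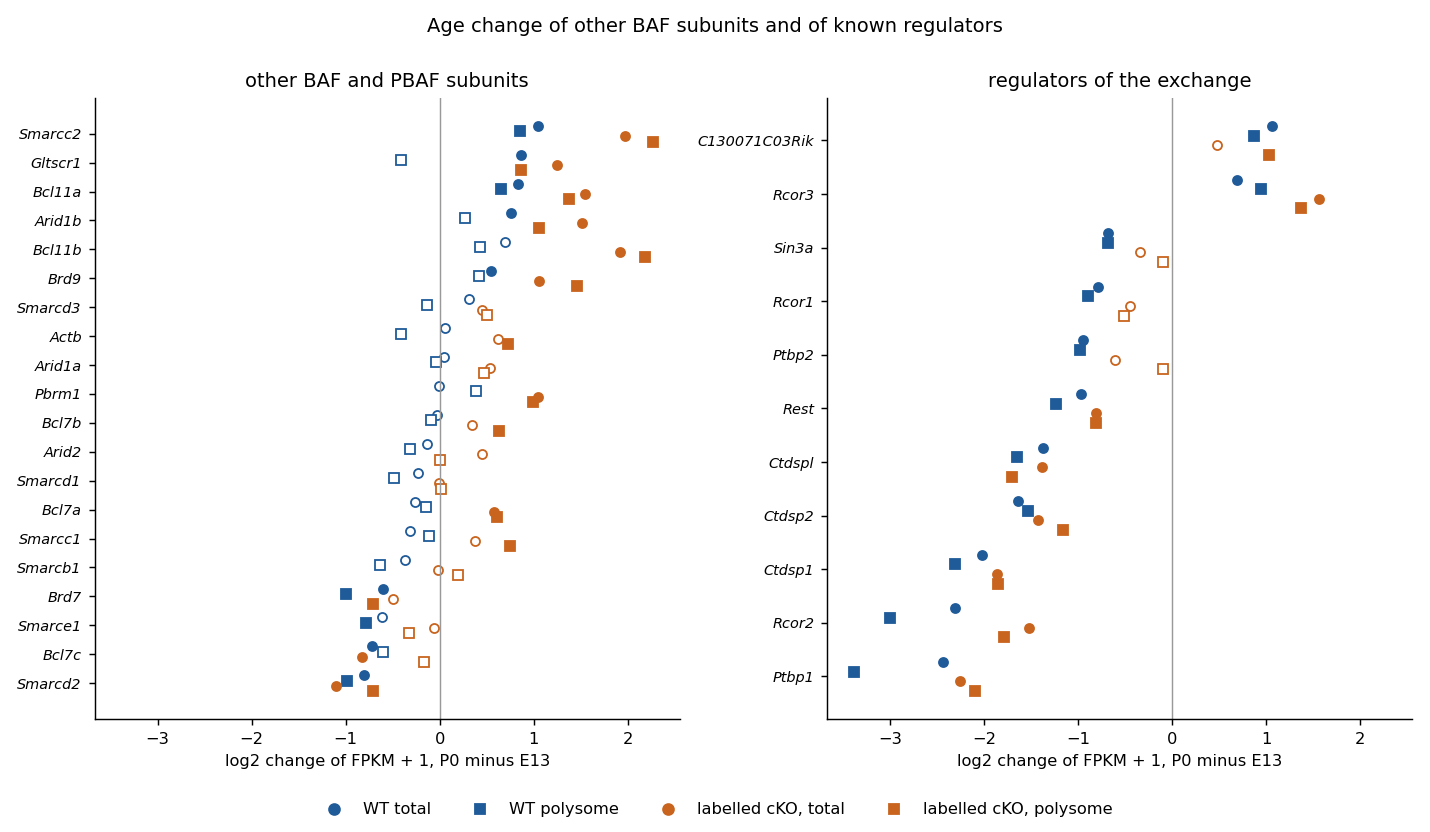
Log2 change of FPKM + 1 from E13 to P0 (horizontal axis) for 20 other BAF and PBAF subunits (left) and 11 known regulators of the exchange (right). Circles are total and squares polysome RNA, WT in blue and libraries labelled cKO in orange, filled where called. The regulators reach -2.44 in WT total RNA (Ptbp1), while the lowest of the other subunits there is Smarcd2 at -0.81.

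Other ATP-dependent remodelers moved in both directions. Of 24 measured among 25 listed, 4 were higher and 10 lower in WT total RNA (median -0.25). Over all genes the median was -0.12, with 24.4% called higher and 27.9% lower. The neuronal CHD remodeler Chd5 rose by 3.55 (adjusted p = 8.16e-09), and Hells, a remodeler of dividing cells, had -3.44 (adjusted p = 1.23e-08), Cecr2 -2.20 and Baz1a -1.91.

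The genes whose levels most resembled those of Actl6a and Actl6b were ranked by the smaller of the Pearson correlations over the 15 WT and over the 16 libraries labelled cKO, among 7868 genes. For Actl6a these were the cell division genes Aurkb (0.991 and 0.990), Cdc20 (0.989 and 0.984), Racgap1 (0.992 and 0.983) and Cdk1 (0.991 and 0.973), and Rprd1b (0.990 and 0.969). For Actl6b they were Dlg4, which encodes the postsynaptic scaffold PSD-95 (0.983 and 0.982), Stk32b, Svop, Dnajb5 and the neuronal calcium sensor Hpca, with values from 0.966 to 0.985. Among the other members, Ss18 ranked 57th, Dpf2 112th, Phf10 541st and Smarca4 4907th for Actl6a. For Actl6b, Ss18l1 ranked 63rd, Smarca2 537th and Dpf1 1025th. The order for Actl6b by rank correlation shared 0 of the 5 names. These correlations describe libraries that share age, fraction and table, and no p-value is given for them.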

How the data were processed

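The authors deposited FPKM by library in separate tables of 15 WT and 16 cKO-labelled libraries. Per the submitters' processing notes, TopHat2 2.0.6, Bowtie2 2.0.5.0 and Cuffdiff were used with the mouse builds mm10 and GRCm38. Not given in the sources used here were the Cuffdiff version, gene models and library scaling. Per the labels, 14 gradient fractions were collected, fractions 4 to 7 were pooled as monosome RNA and 9 to 12 as polysome RNA, and both ends were read over 100 bases. The library kit does not keep the strand, so reads of overlapping antisense genes cannot be told apart from those of a member. Columns of the cKO table are numbered differently from the sample titles and were assigned to their group only.

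Of 23284 names in each table, 26 that were dates or bare numbers were left out. The tables hold no counts, so depth in fragments is unknown. From steps between low FPKM values, the value of a fragment relative to the median library was between 0.622 and 1.52. FPKM summed to 391659 at the least and 1130655 at the most, with 13340 to 16625 genes detected.

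The test was limma's moderated two-sided test with an intensity trend (version 3.58.1, R 4.3.3) on log2(FPKM + 1), for genes with a mean of at least 1 FPKM, with Benjamini-Hochberg adjustment over all genes in each of 19 comparisons. Each table was fitted with its 6 groups, and all 12 groups were fitted jointly only to compare age changes. The test was tried on simulated data. No label says that libraries came from separate animals or litters, so p-values reflect only how these libraries vary. The members, gene lists and tests were chosen with earlier results of these data known. All members are named, any listed BAF subunit or regulator may be, other lists by up to 4 members in order of adjusted p in WT total RNA, and the 5 genes most like Actl6a or Actl6b. Remodelers of the other list named here are the first of that order.

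Equal replicate numbers in WT were checked by correlating deviations from group means across genes. At P0 the correlations of equal numbers were 0.502 to 0.734 between total and polysome RNA, 0.421 to 0.484 between total and monosome RNA and 0.207 to 0.395 between monosome and polysome RNA, so the numbers pair the P0 fractions. Across ages they were -0.197 to 0.173. Alternatives changed the pseudocount (0.1), the minimum, the scaling (median ratios), the trend, the groups fitted, the replicate block and each library in turn.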

Additional observations from a re-analysis of the deposited data

How the results depend on the processing

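In WT total RNA the 7 called members (Smarca2, Actl6b, Dpf1, Ss18l1, Actl6a, Dpf2 and Ss18) kept their age call and direction under every alternative run, and so did these 7 in WT polysome RNA and all 10 in polysome RNA labelled cKO. The counts against total RNA were least stable. In WT E13, 2 members became 1 after median ratio rescaling, 0 when only the groups compared were fitted, and 0 with the replicate block within E13, and leaving out single libraries gave 0 to 2. In WT P0, 2 became 4 with only the groups compared and 4 with the replicate block within P0, and leaving out single libraries gave 0 to 1. In the libraries labelled cKO, with only the groups compared, 1 became 0 at E13 and 1 became 2 at P0, with 0 to 2 and 0 to 1 on leaving out libraries. Leaving out libraries gave 3 to 6 for polysome against monosome RNA labelled cKO at P0 (7 with all libraries), and 0 to 1 for the difference in age change in polysome RNA (0 with all). Phf10 in WT E13 polysome against monosome RNA went from 0.23 to -0.80 (adjusted p = 0.0214) without monosome replicate 1 and to 1.26 without monosome replicate 0. The cause of these changes was not tested. Counts under the alternatives are given without the share of all genes called in the same fit.

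The replicate block over all WT libraries changed no count of members. It took equal numbers as shared across ages, where their correlations were only -0.197 to 0.173. It therefore cannot show whether pairing within an age leaves the counts unchanged. Beside the calls printed with the P0 results, the block within E13 ended those of Dpf2 and Dpf1 against total RNA (adjusted p = 0.257 and 0.174) and of Ss18 against monosome RNA (0.0767). At E13, correlations of equal numbers were -0.512 and -0.538 between total RNA and the other fractions, and with the total numbers exchanged the block within E13, an alternative chosen after seeing the data like the block within an age, gave 2 members for polysome against total RNA and 7 against monosome RNA, with Actl6b added there (0.00412). Libraries labelled cKO were not paired, because their columns were matched to a group and not to a title.

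Leaving out single libraries moved the log2 balance change from E13 to P0 as follows. Actl6b over Actl6a ranged from 5.16 to 6.92 in WT total, 5.46 to 7.39 in polysome and 3.29 to 5.73 in monosome RNA. Smarca2 over Smarca4 ranged from 2.05 to 2.72, 1.57 to 2.55 and 2.38 to 2.67 in WT total, polysome and monosome RNA, and under the cKO label from 0.67 to 1.35 in polysome and 2.41 to 3.02 in monosome RNA. The PHD-finger pair ranged from 2.41 to 2.83, 2.81 to 3.74 and 1.40 to 3.73 in WT total, polysome and monosome RNA. With FPKM alone, low genes such as Dpf3 carry an unknown counting error: with a pseudocount of 0.1 its monosome change labelled cKO was called (2.45, adjusted p = 0.00639).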
